A study of Homo sapiens with 6 samples.

Results

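The experiment described here set ITM2A siRNA against control siRNA in a pair of Ewing sarcoma cell lines, A673 and SK-N-MC. It covers 4 of the series' 6 arrays, namely the 2 labelled with ITM2A siRNA and the 2 labelled control, 1 of each in each line. The 2 remaining arrays carried siRNA against DKK2, a secreted Wnt regulator of the Dickkopf family, and are used as a second reference. All cells were grown in culture medium with serum, and total RNA was labelled for Affymetrix whole-transcript arrays. The control was a non-silencing siRNA, so every culture had been transfected. By its title the ITM2A siRNA carries the number 7 in A673 but 1 in SK-N-MC, whereas the design text gives 7 for both lines, so it is not known whether both lines received the same sequence. The sources used here give neither the siRNA sequences nor the time from transfection to harvest. Each line is a single established line, and nothing in the labels says how many cultures stood behind an array.

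ITM2A is a single-pass type II membrane protein of the BRICHOS family, whose members carry a chaperone-like domain in their lumenal part. It was first described in chondro-osteogenic and T cell differentiation, and its relatives ITM2B and ITM2C are widely expressed. BTG3 is an antiproliferative protein of the BTG/TOB family, whose members bind the CCR4-NOT deadenylase complex, which shortens the poly(A) tails of mRNAs. GNPNAT1 acetylates glucosamine 6-phosphate on the way to UDP-N-acetylglucosamine, the sugar donor for protein glycosylation.

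Values are log2 RMA levels per probe set, and 18417 genes were represented by 1 probe set each. A difference of 1.00 is a doubling, and levels of different genes are not compared with each other because each probe set has its own response. The correlation over genes was 0.988 to 0.992 between arrays of the same line and 0.938 to 0.947 between lines. Array medians were 3.96 to 4.05. The median difference between siITM2A and control was -0.04 in A673 cells and -0.01 in SK-N-MC cells. As a rough description of the labelled cell type, which the differing responses of probe sets keep from being a test, 22 of 23 measured Ewing sarcoma markers were at or above the median level of all genes, 4.04. Of the other markers 6 of 9 were there for fibroblasts, 6 of 17 for chondrogenic and osteogenic cells and 3 of 10 for muscle. The counts were 0 of 9 for blood, 1 of 8 for endothelium, 2 of 7 for epithelium and 2 of 11 for neural cells. The defining blood and endothelial genes PTPRC and VWF were at 1.90 to 2.09 and 2.42 to 2.58 over the 6 arrays.

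On the siITM2A arrays the ITM2A signal was 11.3-fold below control in A673 cells and 10.5-fold below it in SK-N-MC cells. Its level in A673 was 8.52 with control siRNA, 9.21 with siDKK2 and 5.03 with siITM2A. In SK-N-MC the corresponding levels were 9.48, 9.65 and 6.09. Both siITM2A arrays lay below all 4 other arrays, and the remaining signal was 8.86% of control in A673 cells and 9.55% in SK-N-MC cells. The fitted difference from control was -3.44 ± 0.17 (SE, 2 lines), with an adjusted p of 0.000442 in limma. The difference from siDKK2 was -3.87 ± 0.17, with an adjusted p of 0.00017 in limma.

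BTG3 was the other gene that passed the test against control. Its level in A673 was 7.09 with control siRNA, 6.19 with siDKK2 and 5.31 with siITM2A. In SK-N-MC it was 6.49, 5.75 and 4.63. Within each line the siITM2A array was lowest and the siDKK2 array lay between it and the control. BTG3 fell by 1.82 on the log2 scale (SE 0.13, 2 lines) against control, to 29.2% of the control level in A673 cells and 27.4% in SK-N-MC cells, with an adjusted p of 0.0049 in limma. Against siDKK2 the difference was -1.002 ± 0.13, and the adjusted p of 0.109 in limma did not pass 0.05.

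These 2 genes were the whole set called at an adjusted p under 0.05 against control, 0.0109% of the genes tested. No gene was called as higher. At an unadjusted p under 0.05 limma gave 1273 genes, 6.91% of those tested. Both calls were lost when either siITM2A array was left out, which leaves 1 siITM2A array assumed to vary like the other groups. The adjusted p of ITM2A was then 0.102 without the A673 array and 0.0542 without the SK-N-MC array, and that of BTG3 was 0.32 and 0.544. Both calls were also lost when the cell line was not used as a block. When the SK-N-MC control array was left out, 4 genes were called, adding the interferon-inducible HERC6 and XAF1 to ITM2A and BTG3.

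The plot of levels sets 8 genes side by side on the 6 arrays.

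**Figure D1:**
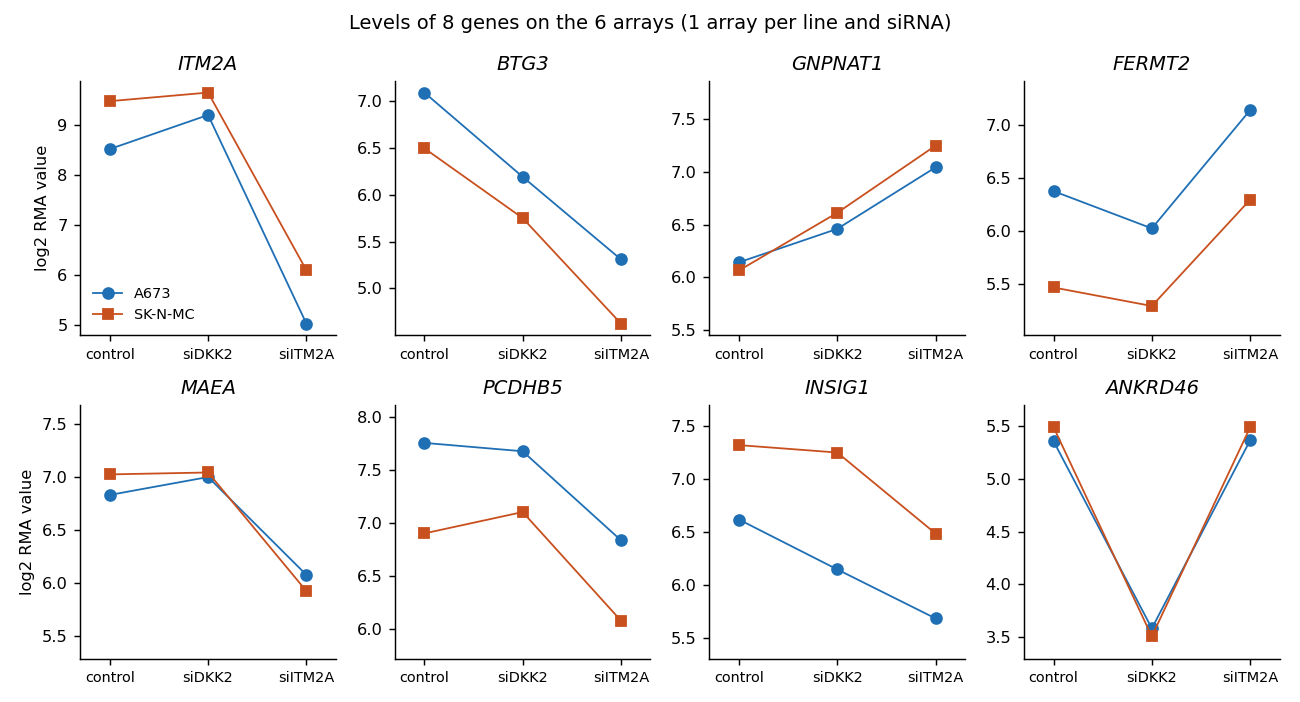
Log2 RMA level (y axis, a scale of its own in each panel) of 8 genes with control siRNA, siDKK2 and siITM2A (x axis) in A673 (blue circles) and SK-N-MC (orange squares), 1 array per point, with lines joining arrays of the same cell line. ITM2A reads 5.03 and 6.09 on the siITM2A arrays against 8.52 and 9.48 on the control arrays, BTG3 steps down from control through siDKK2 to siITM2A in both lines, and ANKRD46 is low on the siDKK2 arrays only.

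No relative of ITM2A or BTG3 passed the test. ITM2B went from 7.64 to 7.58 in A673 cells and from 7.77 to 7.53 in SK-N-MC cells, a fitted difference of -0.15 ± 0.13 (SE). ITM2C differed by -0.03 ± 0.14. BRICD5, a small BRICHOS protein, differed by 0.64 in SK-N-MC and 0.10 in A673, with a fit of 0.37 ± 0.17. The dim probe sets of SFTPC, a lung surfactant protein, and GKN1, a stomach protein, differed by 0.45 and -0.42 in A673 and by -0.07 and -0.10 in SK-N-MC. Of the 9 measured ITM2 and BRICHOS genes, ITM2A was the 1 that passed the test. In the BTG/TOB family, BTG1 differed by 0.26 ± 0.17, TOB1 by 0.13 ± 0.14 and TOB2 by -0.04 ± 0.13, and BTG3 was the 1 of 5 that passed. Both lists were chosen with earlier results of these data known, and 0.0109% of all genes passed. The adjusted p of ITM2B, ITM2C, BTG1, TOB1 and TOB2 was at least 0.841 in limma.

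BTG3's partner complex was described as a list of 19 CCR4-NOT and PAN deadenylase genes. None passed the test in limma, and 3 had an unadjusted p under 0.05, beside 6.91% of all genes. Of the 19 genes, 7 were lower and 1 was higher in both lines, against 30.7% lower and 21.2% higher in both lines among all genes. The median difference was -0.07, beside -0.03 for all genes. The catalytic subunit gene CNOT6 differed by -0.33 ± 0.13 (SE), the regulatory subunit CNOT3 by -0.36 ± 0.15 and PAN2 by -0.37 ± 0.14. On the siDKK2 arrays CNOT6 and PAN2 were also below control, at 6.91 against 7.25 and 5.67 against 5.97 in A673.

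GNPNAT1 had the highest fitted difference of the 15 higher genes, which were ranked by the lesser of their differences in the 2 lines. It read 6.14 with control siRNA, 6.46 with siDKK2 and 7.04 with siITM2A in A673, and 6.07, 6.61 and 7.25 in SK-N-MC. Every siITM2A value lay above every other value, and the siDKK2 arrays were in between. The difference from control was 1.04 ± 0.14 (SE), or 1.86-fold in A673 and 2.26-fold in SK-N-MC, and its adjusted p of 0.303 in limma did not pass. GFPT1, the first and rate-limiting enzyme of the pathway, differed by -0.11 ± 0.14, and UAP1, which makes the UDP sugar, by 0.17 ± 0.14. Of the 15 measured genes of the pathway, 5 were higher and 5 lower in both lines, 33.3% each, beside 21.2% and 30.7% of all genes. The median difference was 0.05. In limma 4 had an unadjusted p under 0.05, beside 6.91% of all genes, and none passed the test. The lower ones included CMAS, which activates sialic acid, at -0.41 ± 0.15, and GNPDA1 at -0.34 ± 0.14.

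The gene measured next to GNPNAT1 on chromosome 14 was FERMT2, which encodes kindlin-2, an activator of integrins at focal adhesions. FERMT2 read 6.37, 6.02 and 7.14 in A673 and 5.46, 5.29 and 6.29 in SK-N-MC for control, siDKK2 and siITM2A. The siITM2A array was the highest in each line and the siDKK2 array the lowest. The difference from control was 0.80 ± 0.13 (SE), with an adjusted p of 0.41 in limma, and that from siDKK2 was 1.06 ± 0.13, with an adjusted p of 0.0957. On the other side of GNPNAT1, the pseudophosphatase gene STYX went the other way, by -0.34 in A673 cells and -0.79 in SK-N-MC cells. STYX was looked at after the values were seen. Among 20 measured genes of kindlins, talins and focal adhesion adaptors, 6 were higher and 4 lower in both lines. The shares of all genes were 21.2% higher and 30.7% lower in both lines. The median difference of the 20 genes was -0.005. In limma 3 of them had an unadjusted p under 0.05, beside 6.91% of all genes, and none passed. FERMT3 differed by 0.35 ± 0.13, PARVB by 0.34 ± 0.14 and the integrin subunit gene ITGAV by -0.25 ± 0.14.

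Across all genes the differences in the 2 lines were only loosely related. Their SD was 0.26 in A673 cells and 0.25 in SK-N-MC cells, and the correlation over 18417 genes was 0.10, rising to 0.18 over the 9209 genes at or above the median level. These correlations are across genes, which are not independent, and describe a single pair of arrays in each line. At least 1.5-fold in both lines, 31 genes were lower and 16 higher, 0.168% and 0.0869% of those tested. For 10 genes, 0.0543%, the lines differed from control by at least 1.5-fold in opposite directions. Within a single line such differences were more frequent: 238 genes were at least 1.5-fold higher (1.29%) and 366 lower (1.99%) in A673, and 236 higher (1.28%) and 292 lower (1.59%) in SK-N-MC. At least 2-fold, 14 were higher (0.076%) and 44 lower (0.239%) in A673, and 20 higher (0.109%) and 14 lower (0.076%) in SK-N-MC. At least 2-fold in both lines at once, the 2 lower genes were ITM2A and BTG3, and 0 were higher.

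**Figure D2:**
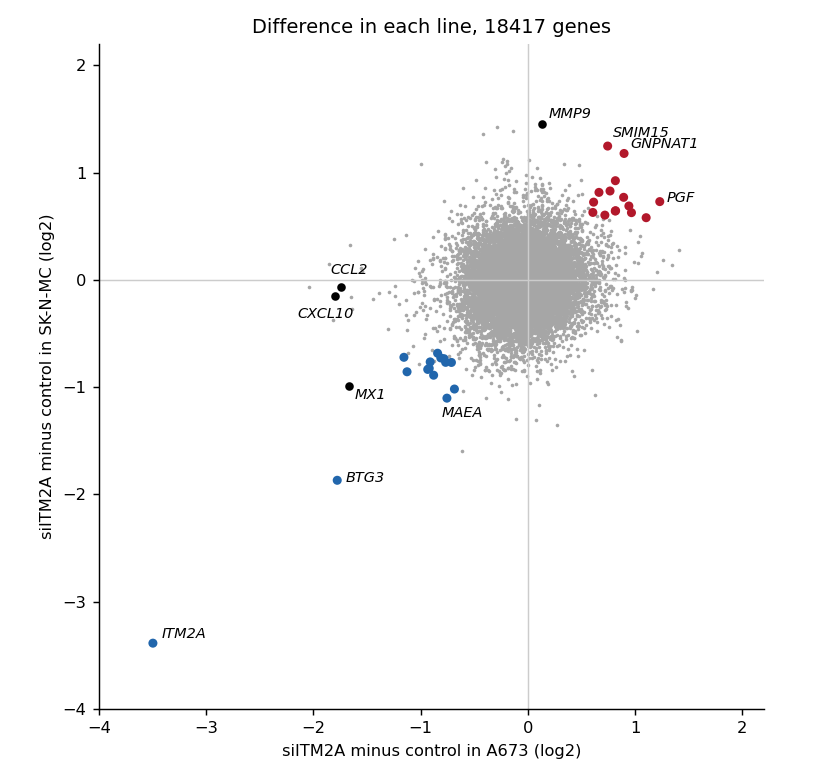
Difference between siITM2A and control (log2) in A673 (x axis) and SK-N-MC (y axis) for 18417 genes (grey), with the 15 higher (red) and 15 lower (blue) genes ranked by the lesser of their 2 line differences and 4 genes with a larger difference in 1 line (black). ITM2A at -3.50 and -3.39 and BTG3 at -1.78 and -1.87 lie apart from the cloud, whose SD is 0.26 in A673 cells and 0.25 in SK-N-MC cells.

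Apart from ITM2A and BTG3, the 15 lower genes ranked by the lesser of their 2 line differences did not pass the test, and their adjusted p against control was 0.41 to 0.825 in limma. They fall into several unrelated functions. MAEA, the RING subunit of the CTLH ubiquitin ligase, read 6.83 with control siRNA, 6.999 with siDKK2 and 6.08 with siITM2A in A673, and 7.02, 7.04 and 5.92 in SK-N-MC. The siDKK2 arrays matched the control closely and both siITM2A arrays were below all others. The fitted difference was -0.93 ± 0.14 (SE). KLHDC3, a substrate receptor of a cullin 2 ubiquitin ligase, behaved evenly, at -0.77 in each line, with the siDKK2 arrays 0.19 and 0.02 above control.

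Other lower genes act in mitochondria, transcription and lipid metabolism. TIMM17A, a subunit of the inner membrane protein import channel, differed by -0.84 ± 0.13 (SE), and SLC25A44, a mitochondrial carrier of branched-chain amino acids, by -0.76 ± 0.18. GTF2E1, a subunit of the general transcription factor TFIIE, differed by -0.77 ± 0.13. For GTF2E1 the siDKK2 arrays were almost as low, at 5.63 and 5.43 beside 5.44 and 5.35 with siITM2A. ELOVL5, which elongates polyunsaturated fatty acids, went from 9.12 to 8.40 in A673 cells and from 9.95 to 9.18 in SK-N-MC cells. PAK2, a kinase activated by the small GTPases CDC42 and RAC, differed by -0.85 ± 0.14.

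MLXIP, a glucose-sensing transcription factor that pairs with MLX, went from 6.20 to 5.36 in A673 cells and from 6.26 to 5.57 in SK-N-MC cells. Its known target TXNIP, an arrestin-like protein that limits glucose uptake, was looked up after the values were seen. TXNIP differed by -1.11 in A673 cells and -0.68 in SK-N-MC cells, with a fit of -0.90 ± 0.17 (SE) and an adjusted p of 0.547 in limma. The siDKK2 arrays read 6.05 and 7.28 for TXNIP, near the control values of 6.06 and 7.46. ARRDC4, another known target, differed by -0.37 ± 0.18, and MLX by 0.04 ± 0.15. BCL7A, the measured gene next to MLXIP on chromosome 12, differed by -0.59 and -0.64 in the lines.

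The 15 higher genes named by the same rule include GNPNAT1 and FERMT2, and none passed, with adjusted p values of 0.303 to 0.707 in limma. PGF, placental growth factor, a ligand of the receptor FLT1, went from 5.69 to 6.92 in A673 cells and from 4.77 to 5.50 in SK-N-MC cells, with siDKK2 at 6.05 and 4.23. ATP1B1, the beta subunit of the sodium-potassium ATPase, went from 7.21 to 8.02 and from 5.13 to 5.77, with siDKK2 near control at 7.41 and 5.16. Both genes were highest on the siITM2A array of each line. BGN, the matrix proteoglycan biglycan, differed by 0.80 ± 0.16 (SE), and ENPP1, which makes pyrophosphate, by 0.62 ± 0.23.

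SYT11, a synaptotagmin of membrane trafficking, differed by 0.87 ± 0.19 (SE). SPATA20, a thioredoxin-like protein, differed by 0.83 ± 0.17. NQO1, a quinone reductase, went from 5.92 to 6.73 in A673 cells and from 4.75 to 5.39 in SK-N-MC cells, while siDKK2 gave 5.93 and 4.21. DDIT4, a stress-induced inhibitor of mTORC1, differed by 0.66 ± 0.13, the calcium-binding S100A6 by 0.67 ± 0.19 and GRP, the bombesin-like peptide gastrin-releasing peptide, by 0.84 ± 0.20. Without the A673 control array the fitted difference of GRP was 0.48 and that of PGF was 0.63. ENPP1 read 0.37 when the control of SK-N-MC was left out and 0.38 when the siITM2A array of A673 was.

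In 3 of the higher genes the siDKK2 arrays were about as high as the siITM2A arrays. SMIM15, a small membrane protein, differed from control by 1.00 ± 0.19 (SE) and from siDKK2 by 0.01 ± 0.19. The histone gene H2BC9 differed from control by 0.74 ± 0.16 and from siDKK2 by 0.03 ± 0.16. The latter averages opposite differences, -0.255 in A673 cells and 0.323 in SK-N-MC cells. VPS4B, an ATPase that takes apart ESCRT-III, differed from control by 0.82 ± 0.13 and from siDKK2 by 0.17 ± 0.13. The differences of siITM2A and of siDKK2 from control use the same control arrays, so values shared by both are not independent of each other.

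**Figure D3:**
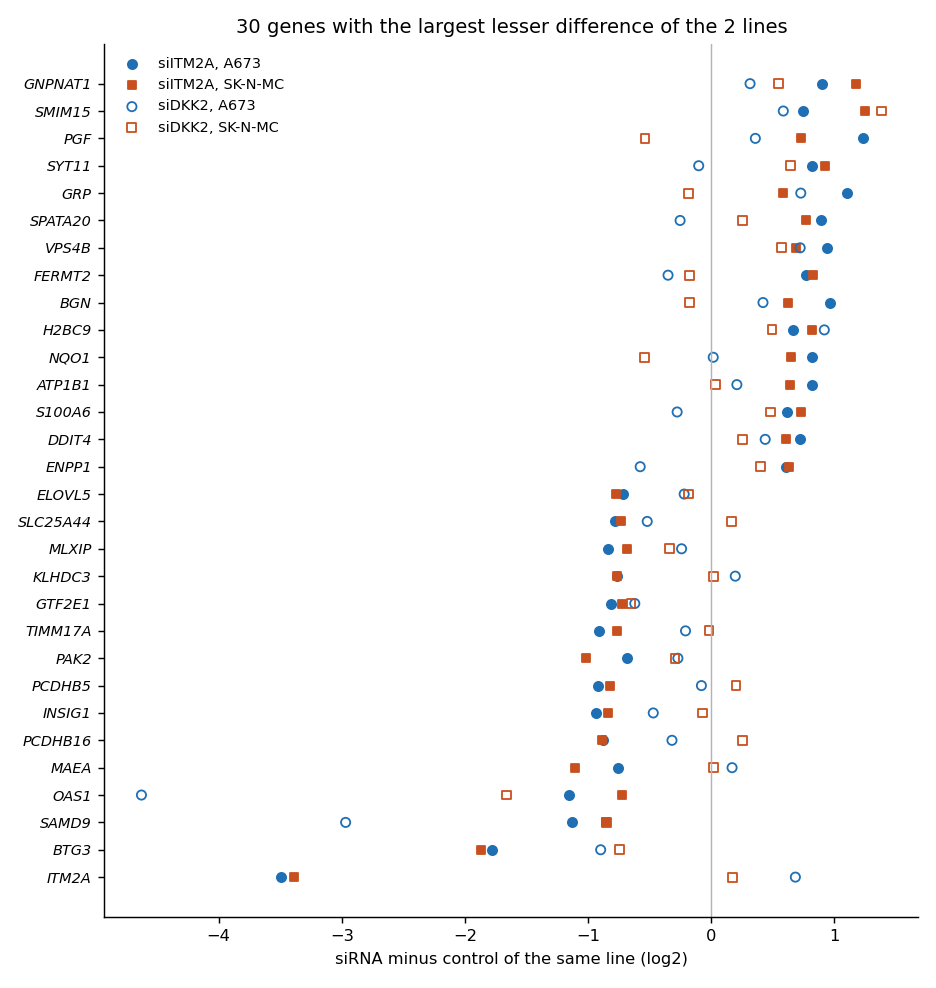
Difference from the control array of the same line (x axis, log2) for the 30 named genes (y axis), with siITM2A as filled and siDKK2 as open symbols, A673 in blue circles and SK-N-MC in orange squares, 1 array per point. For KLHDC3 and MAEA the open symbols lie near 0 and the filled ones between -0.76 and -1.10. For SMIM15 and H2BC9 the open and filled symbols span overlapping ranges.

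The comparison with siDKK2 asked which genes separate the siRNAs from each other. It called 3 genes, 0.0163% of those tested, and 1533 genes, 8.32%, had an unadjusted p under 0.05 in limma. The call on the lower side, 0.00543% of genes, was ITM2A, with the values given above. ANKRD46, an ankyrin repeat membrane protein, read 5.36 and 5.48 with siITM2A, 5.35 and 5.49 with control siRNA and 3.58 and 3.51 with siDKK2, in A673 and SK-N-MC. The siITM2A and control arrays were alike and the siDKK2 arrays stood apart. ANKRD46 rose by 1.88 ± 0.13 (SE) against siDKK2, with an adjusted p of 0.00376 in limma, and its difference from control was 0.00 ± 0.13. ATP6V1D, a subunit of the vacuolar proton pump, rose by 1.54 ± 0.13 against siDKK2, with an adjusted p of 0.00979, and differed from control by -0.24 ± 0.13.

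The number of genes called against siDKK2 ranged from 1 to 50 when arrays were left out one at a time. It was 1 without either siITM2A array, 2 without the A673 siDKK2 array, 18 without either control array and 50 when the siDKK2 array of SK-N-MC was absent. DKK2 itself was 9.13 and 7.94 on the siITM2A arrays, 8.64 and 8.01 on the control arrays and 7.73 and 6.50 on the siDKK2 arrays. It differed by 0.21 ± 0.17 (SE) between siITM2A and control. Of the 9 Dickkopf and receptor genes, 1 was higher and 1 lower in both lines against control, 11.1% each, beside 21.2% and 30.7% of all genes. In limma none of the 9 passed and 0 had an unadjusted p under 0.05, beside 6.91% of all genes.

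Against the mean of control and siDKK2, which uses all 4 arrays without ITM2A siRNA, 2 genes were called, again 0.0109%, and 1295, or 7.03%, had an unadjusted p under 0.05 in limma. They were ITM2A, at -3.66 ± 0.15 (SE) with an adjusted p of 8.37e-05, and BTG3, at -1.41 ± 0.11 with an adjusted p of 0.0118. BTG3 was lost when either siITM2A array was left out, which left 1 call. MMP9 was called as well when the A673 control array was absent. IFIT1 and PARP9, both interferon-inducible, joined ITM2A and BTG3 when the siDKK2 array of SK-N-MC was absent. FERMT2 and MAEA each had an adjusted p of 0.12, at 0.93 ± 0.11 and -0.98 ± 0.12.

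The clustered protocadherins are cadherin-like surface proteins encoded by neighbouring genes on chromosome 5, each with its own promoter. They are best known for giving neurons individual surface identities. Promoters of the cluster carry a short conserved element with the core CGCT. A 10-base sequence, GGTGGCGCTG, was the most shared 10-mer among the beta protocadherin promoters held in the RefSeq table, and it was found by a search after the values were known. RefSeq promoters of GRCh38.p14, 250 bases before to 50 bases after the gene start, were held for 14 of 16 measured genes. The sequence was present on either strand in 12 of these 14, 85.7%, and in 55 of all 14239 promoters, 0.386%, which include the family itself. The windows below are on the plus strand, which is the strand of the genes. The first 3 belong to the genes with the lowest fitted differences, the next to the gene that was higher in both lines and the last to a promoter with 1 mismatch. Capitals mark the 10-base match.
PCDHB16, chr5:141182311-141182340: gagaacgcgtGGTGGCGCTGcaggttaaga
PCDHB5, chr5:141135180-141135209: taggacgcctGGTGGCGCTGcaggctaaga
PCDHB2, chr5:141094545-141094574: agagacgcggGGTGGCGCTGcagccttaga
PCDHB4, chr5:141121724-141121753: caagacgcagGGTGGCGCTGcaggctaagt
PCDHB1, chr5:141051338-141051367: gctagcctttGGTGGTGCTGcagttagagg
Because the 10-mer was picked as the most shared one, it could hardly separate these genes, and a link to their values was not tested. It is present for PCDHB16, PCDHB5 and PCDHB2. It is also present for PCDHB4, which was higher by 0.23 and 0.17 in the lines, on a dim probe set with a mean level of 2.22.

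PCDHB5 read 7.75 with control siRNA, 7.68 with siDKK2 and 6.83 with siITM2A in A673, and 6.90, 7.10 and 6.08 in SK-N-MC. PCDHB16 read 6.07, 5.75 and 5.19 in A673 and 5.27, 5.53 and 4.38 in SK-N-MC. PCDHB2 read 7.62, 7.36 and 6.73 in A673 and 6.23, 6.29 and 5.58 in SK-N-MC. In each line the siITM2A array was the lowest for all 3 genes. The fitted differences from control were -0.87 ± 0.14 (SE) for PCDHB5, -0.88 ± 0.17 for PCDHB16 and -0.77 ± 0.14 for PCDHB2, and the adjusted p in limma was 0.41, 0.623 and 0.484.

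Of the 16 measured beta protocadherins, 12 were lower and 1 was higher in both lines, 75.0% and 6.25%, beside 30.7% and 21.2% of all genes. The median difference was -0.35, at -0.41 in A673 cells and -0.30 in SK-N-MC cells, and -0.15 against siDKK2. None passed the test and 8 had an unadjusted p under 0.05 in limma, beside 6.91% of all genes. Only 6 of the 16 were at or above the median level of all genes, and the differences of the dimmer ones, such as PCDHB8 at 2.24 and 1.89 in A673, lie in a range where RMA compresses changes. The beta genes are near-identical in long stretches, so their probe sets may share target RNA and the 16 values are uncertain as separate measurements. Small differences in at least 1 line were also seen at or above the median level. In A673 and SK-N-MC, PCDHB3 differed by -0.15 and 0.03, PCDHB9 by -0.05 and -0.55 and PCDHB11 by -0.05 and -0.27. PCDHB6 went in opposite directions, by -0.60 in A673 cells and 0.57 in SK-N-MC cells.

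**Figure D4:**
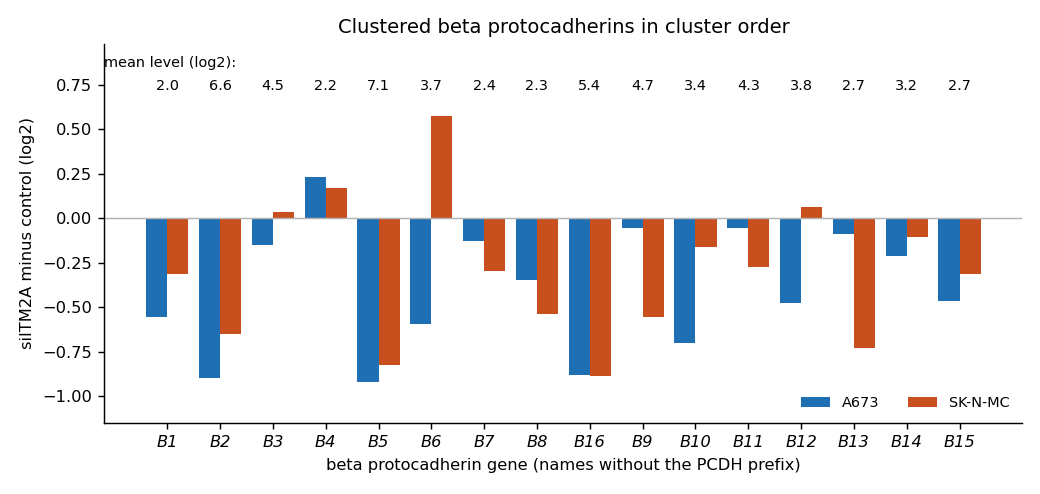
Difference between siITM2A and control (y axis, log2) for 16 beta protocadherin genes in their order on the chromosome (x axis), in A673 (blue bars) and SK-N-MC (orange bars), 1 array pair per bar, with the mean log2 level over 6 arrays above each gene. Of the 6 genes at or above the median level of 4.04, PCDHB2, PCDHB5 and PCDHB16 read between -0.65 and -0.92, and PCDHB3, PCDHB9 and PCDHB11 between -0.55 and 0.03, while PCDHB4 is above 0 in both lines, and PCDHB6 has opposite signs.

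The CTLH complex, the mammalian form of the yeast GID ubiquitin ligase, contains MAEA and its partner RING proteins. Of its 11 measured genes, 7 were lower and 2 higher in both lines, 63.6% and 18.2% beside 30.7% and 21.2% of all genes. An unadjusted p under 0.05 was given by 4, beside 6.91% of all genes. None passed the adjusted test, and the median difference was -0.24. Besides MAEA, the scaffold gene RANBP10 differed by -0.66 in A673 cells and -0.56 in SK-N-MC cells, RMND5A, another RING subunit, by -0.34 and -0.96, and the accessory subunit YPEL5 by -0.42 and -0.59. The siDKK2 arrays were also below control for these 3 genes, and against siDKK2 the differences were -0.28 for RANBP10, -0.31 for RMND5A and -0.29 for YPEL5. The median of the 11 genes against siDKK2 was -0.02. RANBP9, the close relative of RANBP10, differed from control by 0.11 ± 0.15 (SE), and the substrate receptor GID4 by 0.23 ± 0.15.

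Cholesterol synthesis and uptake genes are controlled together by SREBP transcription factors. The list held 20 measured genes, of which 12 were lower in both lines and 2 were higher in both, where all genes had 30.7% and 21.2%. The median difference was -0.16, with 4 genes at an unadjusted p under 0.05, beside 6.91% of all genes, and none passing. INSIG1, an endoplasmic reticulum protein that holds SREBP back, went from 6.62 to 5.69 in A673 cells and from 7.32 to 6.49 in SK-N-MC cells, with siDKK2 at 6.15 and 7.25. STARD4, a cholesterol carrier, went from 6.35 to 5.28 and from 6.36 to 5.74, with siDKK2 lower still at 4.50 and 5.44. The siITM2A array was lowest for INSIG1 and intermediate for STARD4. MVK, mevalonate kinase, differed by -0.50 ± 0.15 (SE), MSMO1, a sterol oxidase, by -0.43 ± 0.14, and the factor gene SREBF2 itself by -0.22 ± 0.13. A sequence of the SREBP type, TCACNCCAC on either strand, was in 1 of 18 promoters, 5.56%, and in 1.14% of all.

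Interferon response genes are switched on by STAT factors and defend cells against viral RNA. Of 39 measured genes, 32 were lower and 1 was higher in both lines, 82.1% and 2.56% beside 30.7% and 21.2% of all genes. The median difference was -0.73 in A673 cells and -0.21 in SK-N-MC cells, and no gene passed the test, with 5 at an unadjusted p under 0.05, beside 6.91% of all genes. The median level of the list in A673 was 6.40 with control siRNA, 5.37 with siITM2A and 3.38 with siDKK2. In SK-N-MC it was 3.99, 3.76 and 3.24. The A673 control array was the highest of the 6, and siITM2A lay between control and siDKK2 in both lines. Against siDKK2 the median difference of the list was 1.01. Leaving out the A673 control array made the fit estimate that control from the other arrays, the siDKK2 arrays among them. The median fitted difference from control over the list was then 0.13. The SK-N-MC pair, the only pair with a control left, had a median of -0.21.

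OAS1 followed the order of control, siITM2A and siDKK2 in both lines, and SAMD9 and MX1 followed it in A673. OAS1, which makes the second messenger that activates RNase L, read 8.84 with control siRNA, 7.69 with siITM2A and 4.22 with siDKK2 in A673, and 5.96, 5.24 and 4.30 in SK-N-MC. SAMD9, an antiviral factor, read 5.57, 4.44 and 2.60 in A673 and 4.80, 3.95 and 3.95 in SK-N-MC. MX1, an antiviral GTPase, read 6.43, 4.76 and 2.85 in A673 and 3.47, 2.48 and 2.89 in SK-N-MC. For OAS1 the fit gave -0.94 ± 0.57 (SE) against control and 2.21 ± 0.57 against siDKK2, and the SE was 0.42 for SAMD9 and 0.56 for MX1, beside 0.17 for ITM2A and 0.13 for BTG3. These SEs draw on the siDKK2 arrays too. There OAS1 differed from control by -4.63 in A673 cells and -1.66 in SK-N-MC cells, SAMD9 by -2.97 and -0.85 and MX1 by -3.58 and -0.58. Fits without a control array estimate it from the other arrays, siDKK2 included, and gave other values. For OAS1 the fitted difference from control was -0.09 without the A673 control and -1.79 without the SK-N-MC control. For SAMD9 it was -0.40 and -1.59. The differences within SK-N-MC and A673 were -0.72 and -1.16 for OAS1 and -0.86 and -1.13 for SAMD9. The chemokine gene CXCL10 differed by -1.80 in A673 cells and by -0.15 in SK-N-MC cells. OAS2, looked up after the values were seen, read 5.57, 4.02 and 2.49 in A673 and 2.54, 2.62 and 2.69 in SK-N-MC, so the order was seen in A673 and not in SK-N-MC.

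Interferon-stimulated response elements carry the pattern GAAA, any 2 bases, GAAA, which was found on either strand in 23 of the 33 interferon gene promoters held, 69.7%, and in 433 of all 14239, 3.04%. The windows of 4 promoters are shown for the genes whose values or relatives were described, each on the strand that carries the match, from RefSeq GRCh38.p14. The pattern was not found in the held window of OAS1. Capitals mark the match.
MX1, chr21:41420559-41420588, plus strand: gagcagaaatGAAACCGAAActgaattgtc
SAMD9, chr7:93118096-93118125, minus strand: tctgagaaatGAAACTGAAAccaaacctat
OAS3, chr12:112938321-112938350, plus strand: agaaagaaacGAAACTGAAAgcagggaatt
IFIT1, chr10:89392497-89392526, minus strand: accgaaagggGAAAGTGAAActaaagctag
OAS3 lies next to OAS1 among the measured genes on chromosome 12 and differed by -0.97 in A673 cells and -0.54 in SK-N-MC cells.

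Stress programmes gave smaller and mixed values. Of 27 measured ATF4 and endoplasmic reticulum stress genes, 14 were higher and 6 lower in both lines. These were 51.9% and 22.2%, beside 21.2% and 30.7% of all genes. The median difference was 0.08. In limma 5 had an unadjusted p under 0.05, beside 6.91% of all genes, and none passed. DDIT4 has been described above. PSPH, a serine synthesis enzyme, differed by 0.45 ± 0.13 (SE), but its other probe set differed by 0.05 in A673 cells and 1.33 in SK-N-MC cells. SLC7A11, the cystine importer, differed by 0.36 ± 0.14, and the cationic amino acid transporter SLC7A1 by -0.31 ± 0.13. The composite ATF4 sequence TGATGNAA was in 6 of 24 promoters, 25.0%, and in 2.54% of all, and the 6 include SLC7A1, one of the lower genes. Of 20 NRF2 target genes, 9 were higher and 4 lower in both lines, 45.0% and 20.0%, beside 21.2% and 30.7% of all genes. Their median difference was 0.11. In limma 5 of them had an unadjusted p under 0.05, beside 6.91% of all genes, and none passed. NQO1 and SLC7A11 were on the higher side, and OSGIN1, an oxidative stress gene, was at -0.48 ± 0.16. The antioxidant sequence TGACNNNGC was in 4 of 16 of their promoters, 25.0%, beside 14.6% of all.

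In the next 4 lists, of proliferation and of cell identity, the medians of the 2 lines had opposite signs. Of 30 E2F, replication and mitosis genes, 10 were lower and 2 higher in both lines, 33.3% and 6.67%, and the median was 0.06 in A673 cells and -0.23 in SK-N-MC cells. E2F2 differed by -0.52 ± 0.16 (SE) and CCNE1 by -0.38 ± 0.15. Of 16 p53 target genes, 6 were lower and 3 higher, with the sestrin gene SESN1 at 0.71 ± 0.17 and TP53INP1 at -0.48 ± 0.16. For the 23 Ewing sarcoma markers the median was 0.18 in A673 cells and -0.10 in SK-N-MC cells, and NKX2-2, a transcription factor induced by the Ewing sarcoma fusion, differed by 0.34 ± 0.15. Of 17 chondrogenic and osteogenic genes, 6 were higher and 3 lower, with BMP2 at -0.45 ± 0.15 and SOX9 at 0.30 ± 0.15. No gene of these 4 lists passed the test in limma, and each list had 2 genes at an unadjusted p under 0.05. The shares of all genes were 21.2% higher and 30.7% lower in both lines, and 6.91% at an unadjusted p under 0.05 in limma.

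The fibroblast markers had 4 of 9 higher and 0 lower in both lines, with PDGFRB, a growth factor receptor, at 0.63 ± 0.14 (SE) and a list median of 0.10. Of 18 core histone genes, 8 were higher and 2 lower, with a median of 0.05 against control and -0.10 against siDKK2. Of 13 Notch genes, 6 were higher and 3 lower, with the ligand gene JAG1 at 0.54 ± 0.14. Of 13 RNA interference genes, 5 were lower and 1 higher, and DICER1, which processes small RNAs, was at -0.61 ± 0.15 against control and 0.24 against siDKK2. Of 32 autophagy genes, 10 were lower and 8 higher, with the cargo receptor gene SQSTM1 at 0.37 ± 0.13. No gene of these 5 lists passed the test in limma, and 1 fibroblast, 4 histone, 1 Notch, 1 RNA interference and 3 autophagy genes had an unadjusted p under 0.05. Among all genes 21.2% were higher and 30.7% lower in both lines, and 6.91% had an unadjusted p under 0.05 in limma.

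The remaining lists had medians of the fitted differences near that of all genes. For the vacuolar proton pump 7 of 17 genes were higher and 3 lower in both lines, with a median of 0.07. For the VEGF family of PGF the counts were 5 and 2 of 12, with a median of 0.10 and VEGFA at 0.28 ± 0.13 (SE). For the synaptotagmins they were 5 and 3 of 14, with a median of 0.02, and for ESCRT-III and VPS4 2 and 1 of 12, with -0.09. For the sodium-potassium ATPase they were 1 and 1 of 5, with -0.03. The line medians of this last list went opposite ways, 0.33 in A673 cells and -0.19 in SK-N-MC cells. Myogenic genes had 3 higher and 2 lower of 10, with a median of -0.04. The markers of other cell types had medians of 0.03 (endothelial), -0.01 (blood), -0.07 (epithelial) and -0.08 (neural). No gene of these lists passed the test in limma, and the unadjusted p was under 0.05 for 1 vacuolar, 1 VEGF, 3 synaptotagmin, 1 ESCRT, 2 sodium-potassium ATPase and 1 neural gene. For all genes the shares were 21.2% higher and 30.7% lower in both lines, and 6.91% at an unadjusted p under 0.05 in limma.

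**Figure D5:**
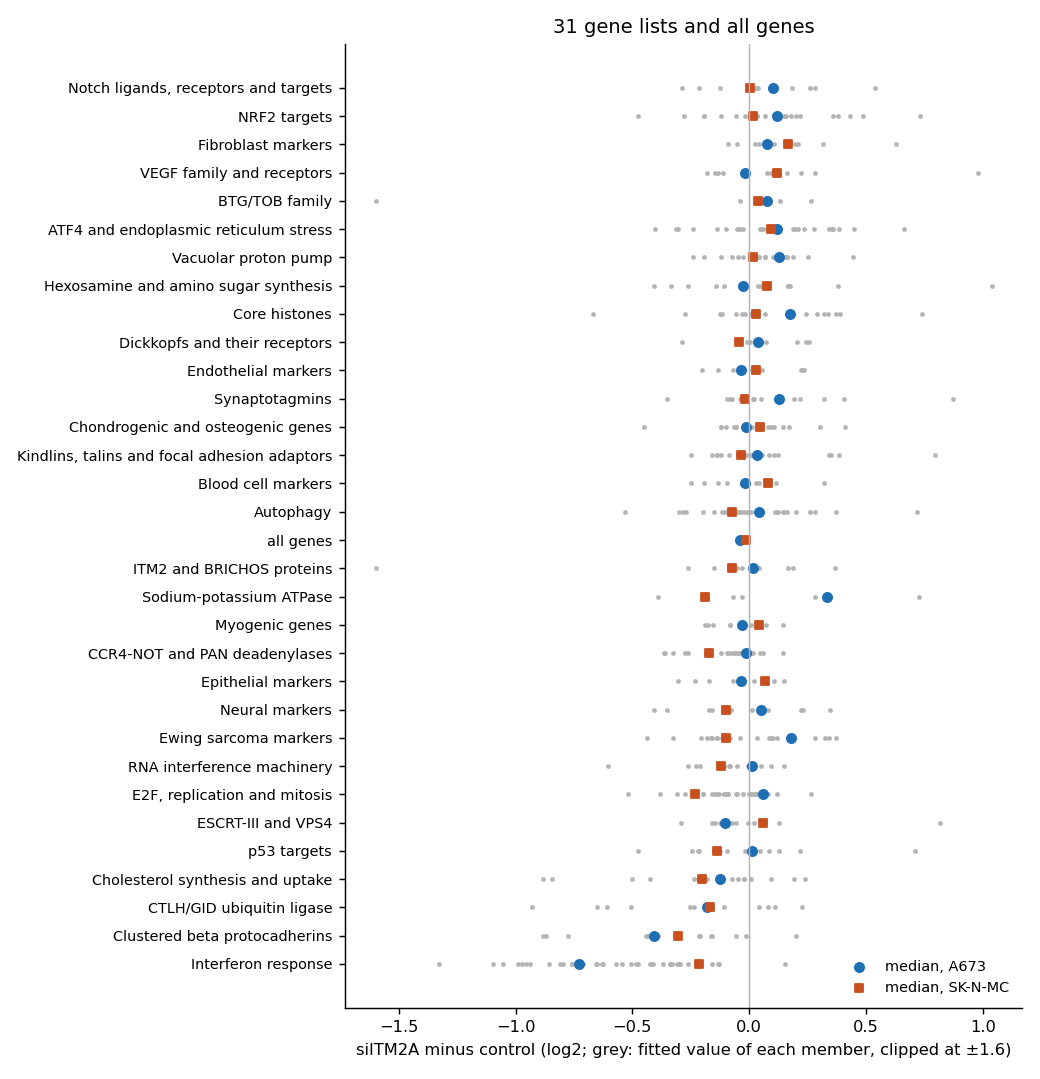
Difference between siITM2A and control (x axis, log2) for 31 gene lists and all genes (y axis), with the fitted difference of each member in grey and the list median in A673 (blue circles) and SK-N-MC (orange squares). The interferon list has medians of -0.73 and -0.21 and the beta protocadherins of -0.41 and -0.30, while all genes have -0.04 and -0.01.

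Some genes differed mainly in 1 line. In A673 the lower ones were CXCL10, CCL2, IFI35, IFIT2, TAP1 and CCL5, of which CXCL10, CCL2 and CCL5 are chemokines and the others interferon-inducible. CCL2 went from 8.24 to 6.50 in A673, with siDKK2 at 7.46, and from 3.48 to 3.41 in SK-N-MC. In SK-N-MC the matrix protease gene MMP9 went from 3.42 to 4.88, with siDKK2 at 3.90, and in A673 from 6.10 to 6.23. The neurotrophic factor coreceptor gene GFRA2 went from 3.97 to 2.68 in SK-N-MC and from 6.10 to 5.99 in A673. The glycolytic enzyme gene ALDOC went from 4.52 to 5.63 in SK-N-MC and from 4.78 to 4.58 in A673. Each of these rests on 1 array per line and siRNA, and the difference between the lines was not tested.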

How the data were processed

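The authors deposited 1 table of 33297 probe sets on 6 arrays. Per the submitters' processing notes it was made with Affymetrix Expression Console and RMA; its version, settings and the build were not given in the sources used here. The deposited values are taken as log2, read from their range of 1.02 to 13.4. RMA aligns the arrays' distributions and compresses dim signals, so small folds are understated there. Signal over background was not measured.

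Of the probe sets, 19460 had 1 gene symbol in the platform's annotation, 1754 several and 12083 none listed. The probe set with the highest mean was kept for each gene, leaving 18417, and 0 data columns belonged to no sample. Tests used limma 3.58.1 in R 4.3.3 (lmFit and eBayes, terms siRNA and cell line, all 6 arrays), with 2 residual degrees of freedom moderated to 8.28 and Benjamini-Hochberg adjustment over all genes at 0.05. The lines pair the arrays, per the labels, so line is the block. No source says that arrays came from separate cultures, so p-values measure only evenness over 2 lines. That evenness is taken over all 6 arrays, siDKK2 included, and moderated over genes, so it is not that of siITM2A and control alone. Array number limits the precision.

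Named were ITM2A, BTG3 and GNPNAT1, 15 higher and 15 lower genes at or above the median level, ranked by the lesser of their differences in the 2 lines, called genes, up to 6 genes opposite in or particular by size to a line (under 0.25 in the other), all members of 5 short lists and up to 5 of each other list. The experiment, its genes and the 31 lists were chosen with earlier results of these data known. Of 512 list genes 31 were not analysed here. Sequences come from RefSeq GRCh38.p14. In simulated data for siITM2A against control, 200 of 18417 genes were changed. On the log2 scale limma recovered 3.8% of genes changed by 0.5, 81.4% at 1, 99.8% at 2 and 100% at 4. Of the calls, 4.54% were false. The adjusted p depends on how many genes change, so these recoveries may be too high for the data. There 2 genes were called, and GNPNAT1 at 1.04 was not. Alternatives changed the block, moderation, level filter, probe sets, centring and arrays. Figures used matplotlib 3.10.9.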

Additional observations from a re-analysis of the deposited data

Results flagged for a closer look

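In 5 of 9209 genes at or above the median level, siITM2A differed from control at least 1.5-fold in opposite directions in the lines. Among all 18417 genes there were 10, or 0.0543%. This contrast of the lines was not tested, as there is 1 array per line and siRNA. The differences in A673 and SK-N-MC were -0.78 and 0.73 for MSL3B, a relative of a dosage compensation complex gene, and -0.71 and 0.64 for the splicing factor gene ZRSR2. KRTAP5-2, a keratin-associated protein gene, gave -0.64 and 0.70. The neutral amino acid transporter gene SLC1A4 gave 0.62 and -1.08, and GCLM, the modifier subunit of the first enzyme of glutathione synthesis, gave 0.60 and -0.84. In SK-N-MC the siDKK2 array differed from the same control array in the same direction. Its differences were 0.62 for MSL3B, 0.795 for ZRSR2, 0.59 for KRTAP5-2, -0.78 for SLC1A4 and -0.36 for GCLM.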

How the results depend on the processing

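Against control the count of called genes was 2 with an intensity trend, with robust moderation, at or above the median level, with averaged probe sets, with centred arrays and on the 4 siITM2A and control arrays alone. With no replicate block, which drops the pairing by line, the count was 0 in each of the 3 comparisons, with 230, 272 and 243 genes at an unadjusted p under 0.05 in limma against control, siDKK2 and their mean. Over all 33297 probe sets limma called 0 against control (1867 unadjusted), 0 against siDKK2 (2153 unadjusted) and 1 against the mean. An intensity trend gave 16 calls against siDKK2 and 9 against the mean, and the level filter gave 6 against siDKK2. Leaving out 1 array at a time gave 0 to 4 calls against control, 1 to 50 against siDKK2 and 1 to 4 against the mean. At least 2-fold in both lines were 0 higher and 2 lower genes, in place of 16 and 31 at 1.5-fold, and over all probe sets 101 and 149 at 1.5-fold. Of 2870 alternative values of 225 named genes, 82 changed sign, 6 lost a call and 0 reversed one. The 30 higher and lower genes ranked by the lesser line difference changed sign in 0 of 390. They were chosen for large differences of the same direction in both lines, which favours that count. Of 340 alternative list medians 30 changed sign, and the blood markers gave no value at or above the median level. With 2 arrays a side, a change of 0.5 on the log2 scale could rarely be called.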

Other observations

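Probe sets with several gene symbols or none, 13837 in number, were not used above. Between siITM2A and control, the same direction in both lines at 2-fold or more was found for 14 that were higher and 24 that were lower, and 34 had opposite directions at that size. Of those with a mean level at or above the gene median, 77 had the same direction in both lines at 1.5-fold or more and 11 at 2-fold or more. A second probe set disagreed with the one used for CNOT6L, whose differences of -0.27 and -0.28 compare with -0.06 and 0.07, and for DKK3, with -0.33 and 0.25 against 0.09 and -0.02.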
